A study of Mus musculus with 4 samples.

Results

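The transcripts of 9 receptors for growth factors, cytokines and chemokines (*Kit*, *Flt3*, *Csf1r*, *Csf2ra*, *Csf2rb*, *Csf3r*, *Il6ra*, *Ccr2* and *Cxcr4*), chosen by name from the 18695 genes of the count matrix, were followed across marker-gated cell types of mouse bone marrow in control and *Tet2* KO animals. All 9 were in the matrix, with UMIs (unique molecular identifiers, each a counted RNA molecule) in every library. *Tet2* encodes an enzyme that oxidises methylated cytosine in DNA. The *Tet2* KO animals were *Tet2* fl/fl mice with Mx1-Cre, a Cre under an interferon-inducible promoter, and the controls were littermates without Cre. Both received 4 doses of pI:pC at 12.5 ug/g, so the interferon stimulus that switches on the Cre was shared. Single cells were profiled with a droplet 3' assay from 2 sorts, granulocyte-monocyte progenitors (GMP, gated as Lin- cKit+ Sca1- CD34+ CD16/32+) and a mix of Lin- progenitors and CD11b+ myeloid cells (Lin-/CD11b+). There was 1 library for each genotype and sort, and both libraries of a genotype came from 1 mouse, so no test of genotype was possible and no p-value was computed. All intervals are exact, at 95%, and cover counting error only.

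These receptors set which external signals a haematopoietic cell can read. KIT, FLT3 and the CSF1 receptor are receptor tyrosine kinases, of which KIT serves stem and early progenitor cells, FLT3 early and dendritic cell progenitors, and the CSF1 receptor monocytes and macrophages. The receptors for GM-CSF, G-CSF and IL-6 have no kinase domain and signal through JAK kinases and STAT factors, while CCR2 and CXCR4 are G protein-coupled receptors, the former needed for monocytes to leave the marrow and the latter for cells to be kept in it.

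Promoter sequences (RefSeq, GRCm38, 250 bases before to 50 bases after the start) could be matched for 7 of the 9 genes. They were searched on both strands for GAGGAA, the core letters bound by PU.1, a transcription factor of myeloid and lymphoid cells. The letters occurred in 4 of the 7 promoters (*Kit*, *Csf2ra*, *Csf3r* and *Il6ra*), against 28.3% of 27025 promoters of the same length, and were not found in these windows of *Flt3*, *Ccr2* and *Cxcr4*. The RUNX core TGTGGT and the C/EBP core TTGCNNAA were in 0 of the 7, against 16.9% and 10.8% of all promoters. The windows shown are those of *Csf2ra*, which has 2 adjacent copies at bases -14 and -8 from the start, of *Csf3r*, the receptor of the neutrophil branch, with a copy at -86, and of *Flt3* and *Ccr2*, which hold none. They lie at chr19:61228369-61228668 (minus strand), chr4:126024409-126024708 (plus strand), chr5:147400440-147400739 (minus strand) and chr9:124101933-124102232 (plus strand), and capitals mark GAGGAA.
Csf2ra: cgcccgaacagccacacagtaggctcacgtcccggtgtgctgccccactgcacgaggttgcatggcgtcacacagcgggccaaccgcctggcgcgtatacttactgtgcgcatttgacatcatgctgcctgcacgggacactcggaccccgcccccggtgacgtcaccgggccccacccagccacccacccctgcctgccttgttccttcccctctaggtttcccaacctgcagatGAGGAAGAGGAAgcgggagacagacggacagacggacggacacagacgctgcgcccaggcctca
Csf3r: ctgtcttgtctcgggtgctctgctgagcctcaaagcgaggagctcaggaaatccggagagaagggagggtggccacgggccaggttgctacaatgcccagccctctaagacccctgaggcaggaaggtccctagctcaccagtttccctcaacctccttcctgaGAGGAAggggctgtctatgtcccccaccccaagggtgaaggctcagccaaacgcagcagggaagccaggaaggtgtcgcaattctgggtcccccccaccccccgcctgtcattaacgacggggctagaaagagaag
Flt3: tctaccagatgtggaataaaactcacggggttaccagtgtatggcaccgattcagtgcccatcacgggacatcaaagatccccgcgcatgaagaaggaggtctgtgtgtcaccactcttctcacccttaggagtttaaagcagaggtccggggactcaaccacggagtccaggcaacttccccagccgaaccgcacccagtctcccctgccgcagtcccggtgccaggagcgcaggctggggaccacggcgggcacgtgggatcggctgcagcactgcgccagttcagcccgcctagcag
Ccr2: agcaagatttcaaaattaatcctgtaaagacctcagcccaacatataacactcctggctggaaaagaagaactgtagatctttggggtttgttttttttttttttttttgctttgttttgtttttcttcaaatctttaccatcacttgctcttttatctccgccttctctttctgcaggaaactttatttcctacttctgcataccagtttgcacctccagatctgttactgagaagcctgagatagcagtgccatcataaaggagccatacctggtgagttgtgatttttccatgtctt

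The files held 8969 cells, of which 1258 were GMP control, 2719 GMP *Tet2* KO, 1924 Lin-/CD11b+ control and 3068 Lin-/CD11b+ *Tet2* KO, with median UMIs per cell of 18713, 15488, 11092 and 10417. Cells were typed by marker UMIs after thinning each to 5000 UMIs, with no receptor among the markers, which put 5752 cells into a gate and 3217 into none. The share in no gate was 38.95% in GMP control and 51.34% in GMP *Tet2* KO, and 25.73% and 27.25% in the Lin-/CD11b+ pair. Markers kept out of the gates checked the names. Neutrophil-, plasma cell-, basophil- and conventional dendritic-like cells were the highest of all gated types in each of theirs in the Lin-/CD11b+ sort. Monocyte-like cells were the highest for *Lgals3*, *Clec4a1* and *Ctss* in both libraries, but ranked 3 for *Irf8* in both and 2 for *Clec4a3* in control. Neutro-biased progenitor-like cells were the highest for *Gfi1*, and ranked 3 and 5 for *S100a8* and *S100a9* in control and 2 and 3 in *Tet2* KO, far below neutrophil-like cells. Early progenitor-like cells ranked from 2 to 5 for theirs, often behind the *Car2* *Itga2b* cells, a small set that was left unnamed. That set was gated on *Klf1*, *Car1*, *Gata1*, *Pf4*, *Itga2b* and *Car2*. Its check marker *Gp1bb* was at 0 in every gated type and so checked nothing. Its other check markers ranked 5 (*Blvrb*) and 4 (*Vwf*) in control, and both ranked 2 in *Tet2* KO. *Cd209d* was at 0 in the plasmacytoid dendritic-like cells of the *Tet2* KO. Between 4 and 8 barcodes were shared by any pair of libraries. *Tet2* was read at 13.02 and 17.0 CPM (UMIs of a gene per 1000000 UMIs of the cells summed) in control and *Tet2* KO GMPs and at 13.4 and 20.7 CPM in the Lin-/CD11b+ pair, which is no check of the deletion, because 3' ends are counted whether or not an exon is lost.

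*Kit* (chr5:75574916-75656722, plus strand), the stem cell factor receptor, was highest in early progenitor-like cells among the named types, at 64.2 CPM (51.4 to 79.3, 122 cells) in the Lin-/CD11b+ control library and 93.5 CPM (81.9 to 106, 249 cells) in the *Tet2* KO library. At the common depth, 34.4% and 39.4% of these cells had a *Kit* UMI. The unnamed *Car2* *Itga2b* cells stood at 83.5 and 123 CPM. Neutro-biased progenitor-like cells came next, at 43.9 and 49.8 CPM, and their interval met that of the early cells in the control library but not in the *Tet2* KO library. In the GMP sort, which selects for KIT on the surface, the same type had 36.3 and 35.4 CPM. Mono-biased progenitor-like cells were lower than neutro-biased ones in each of the 4 libraries, at 17.3 and 15.2 CPM in GMPs and 10.8 and 11.7 CPM in Lin-/CD11b+ cells. Monocyte-like cells had 4.58 and 5.62 CPM, with 2.06% and 2.47% of cells positive.

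*Flt3* (chr5:147330741-147400489, minus strand), the FLT3 ligand receptor, was highest in plasmacytoid dendritic-like cells. They held 192 CPM (156 to 233, 61 cells) in control and 157 CPM (127 to 193, 61 cells) in *Tet2* KO, with 57.4% of cells positive in both. Early progenitor-like cells had 87.4 and 56.2 CPM, conventional dendritic-like cells 68.8 and 97.4 CPM, and monocyte-like cells 68.3 and 54.4 CPM, and the intervals of these types met in the control library. The transcript was low in granulocytic cells, at 0.54 to 1.496 CPM in neutro-biased progenitor-like cells over the 4 libraries and 7.50 and 5.17 CPM in neutrophil-like cells, of which 5.26% and 1.67% were positive. Mono-biased progenitor-like cells had 11.1 and 5.26 CPM in GMPs and 10.5 and 11.4 CPM in Lin-/CD11b+ cells. An antisense gene overlaps *Flt3*, as others overlap *Csf1r* and *Il6ra*, and the sources used here do not say whether strand was used in counting.

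*Csf1r* (chr18:61100598-61132149, plus strand), the receptor for M-CSF and IL-34, was a transcript of the monocytic branch. Monocyte-like cells held 76.6 CPM (66.0 to 88.6, 291 cells) in control and 107 CPM (98.2 to 117, 567 cells) in *Tet2* KO. Mono-biased progenitor-like cells already had 52.7 and 47.3 CPM in GMPs and 64.4 and 60.5 CPM in the Lin-/CD11b+ sort, and in its control library their interval met that of the monocyte-like cells. Neutro-biased progenitor-like cells had 2.99 to 8.42 CPM over the 4 libraries, and neutrophil-like cells 20.5 and 45.5 CPM.

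Of the GM-CSF receptor chains, the ligand-binding alpha chain *Csf2ra* (chr19:61223957-61228429, minus strand) was spread over the myeloid types. Its control levels of 124 CPM in conventional dendritic-like (44 cells), 111 CPM in monocyte-like and 105 CPM in Lin-/CD11b+ mono-biased progenitor-like cells had overlapping intervals. Neutrophil-like cells had 78.4 and 91.5 CPM, and neutro-biased progenitor-like cells 64.5 and 45.6 CPM in GMPs and 55.3 and 44.4 CPM in Lin-/CD11b+ cells. Early progenitor-like cells were lower, at 18.7 and 25.3 CPM. The beta chain *Csf2rb* (chr15:78325752-78353847, plus strand), which also serves the receptors for IL-3 and IL-5, had a different order of cell types. Basophil-like cells led it with 77.5 and 72.4 CPM in GMPs and 108 and 70.7 CPM in Lin-/CD11b+ cells, the type in which the alpha chain was at 27.0 and 10.3 CPM. Mono-biased progenitor-like cells had 24.5 and 29.2 CPM of *Csf2rb* in GMPs and 22.5 and 44.7 CPM in Lin-/CD11b+ cells. *Csf2rb2*, a near-identical neighbour, can share reads with *Csf2rb*, so the split between them is uncertain.

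*Csf3r* (chr4:126024550-126044440, plus strand), the G-CSF receptor, was highest in neutrophil-like cells, at 43.0 CPM (33.0 to 55.0, 152 cells) in control and 43.9 CPM (35.1 to 54.3, 180 cells) in *Tet2* KO. Early progenitor-like cells had 33.6 and 37.3 CPM and neutro-biased progenitor-like cells 25.4 and 26.8 CPM, with intervals that met those of the neighbour in the order. Neutro-biased progenitor-like cells ranged from 25.4 to 29.2 CPM over the libraries of both sorts, below the neutrophil-like cells. At equal depth, 17.8% of neutrophil-like and 18.0% of early progenitor-like control cells had a *Csf3r* UMI, so the order by share put the early cells first. Basophil-like cells of the Lin-/CD11b+ control library had 0 UMIs, which allows up to 8.30 CPM. *Il6ra* (chr3:89864059-89913196, minus strand), the chain that binds IL-6, followed the monocytic branch, with 57.1 and 69.1 CPM in monocyte-like cells and 36.8, 29.9, 32.8 and 39.6 CPM in mono-biased progenitor-like cells of the GMP control, GMP *Tet2* KO, Lin-/CD11b+ control and Lin-/CD11b+ *Tet2* KO libraries. Neutro-biased progenitor-like cells had 5.48 to 10.7 CPM.

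*Ccr2* (chr9:124101950-124113557, plus strand), the receptor for CCL2, reached 308 CPM (286 to 331) in monocyte-like cells of the control library and 499 CPM (479 to 519) in those of the *Tet2* KO library, where 66.0% and 79.2% of cells had a UMI at equal depth. Conventional dendritic-like cells had 305 and 306 CPM, level with the monocyte-like cells in control and below them in *Tet2* KO. By the share of control cells at equal depth, conventional dendritic-like cells came first, at 70.5% against 66.0%, with overlapping intervals. Mono-biased progenitor-like cells had 86.1 and 109 CPM in GMPs and 135 and 172 CPM in Lin-/CD11b+ cells. At equal depth, 35.2% and 37.1% of the GMP cells of this type and 47.1% and 56.7% of the Lin-/CD11b+ ones had a *Ccr2* UMI. *Cxcr4* (chr1:128588199-128592293, minus strand), the CXCL12 receptor, had similar levels in several types. Basophil-like cells had 99.05 and 69.2 CPM, neutrophil-like cells 76.4 and 73.4 CPM and monocyte-like cells 73.7 and 71.8 CPM in the Lin-/CD11b+ sort, with overlapping intervals. Mono-biased progenitor-like cells had 37.8 and 56.9 CPM in GMPs and 64.6 and 80.9 CPM in Lin-/CD11b+ cells, and the last of these was the highest type of its library.

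**Figure D1:**
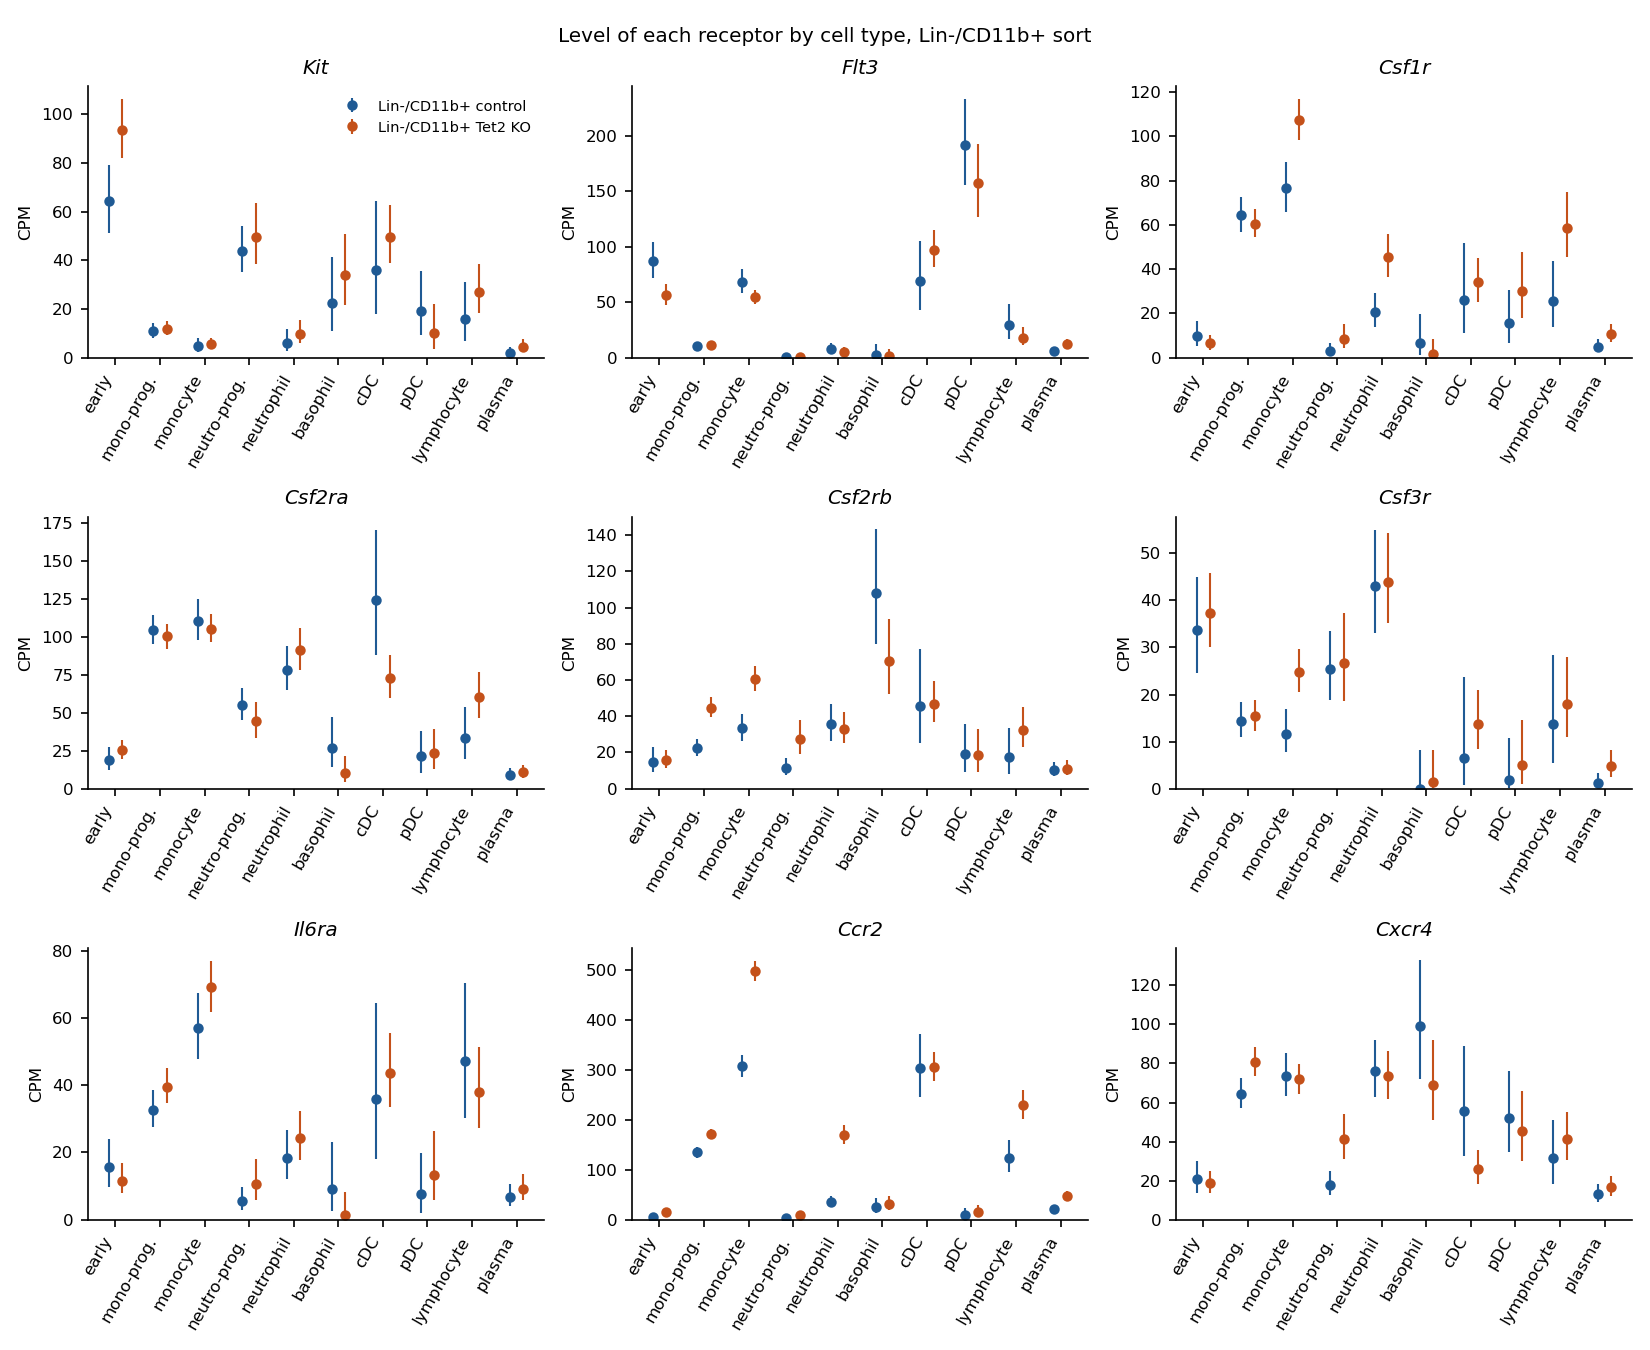
Level of each receptor in CPM (vertical axes, linear from 0, each with its own range) in 10 cell types of the Lin-/CD11b+ sort, with the control library in blue and the *Tet2* KO library in orange, and bars for the 95% counting interval. *Kit* peaks in early progenitor-like, *Flt3* in plasmacytoid dendritic-like, and *Csf2rb* in basophil-like cells, and *Ccr2* stood at 308 and 499 CPM in monocyte-like and at 305 and 306 CPM in conventional dendritic-like cells.

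RNA free in the droplets puts some UMIs into cells that do not express a gene, and plasma cell-like cells, which should lack *Kit*, *Csf1r*, *Flt3* and *Ccr2*, were used to gauge it for these 4. At 5000 UMIs per cell, *Kit* was read in 0.592% and 2.13% of plasma cell-like cells of the control and *Tet2* KO libraries, *Csf1r* in 0.592% and 1.60%, *Flt3* in 2.37% and 3.72%, and *Ccr2* in 5.33% and 8.51%. Their median depth as deposited was 14955 and 12774 UMIs per cell, against 7708 and 7969 in monocyte-like cells. All 4 shares in plasma cell-like cells were higher in the *Tet2* KO library. The *Ccr2* shares of 2.46% and 6.02% in early progenitor-like, 4.92% and 6.56% in plasmacytoid dendritic-like and 1.52% and 4.76% in Lin-/CD11b+ neutro-biased progenitor-like cells lay below those of plasma cell-like cells. But 7 control and 14 *Tet2* KO plasma cell-like cells held 5 or more UMIs of the monocytic gate markers. Without them *Ccr2* fell there from 21.5 to 12.7 CPM in control and from 47.9 to 24.6 CPM in *Tet2* KO. The *Ccr2* shares of plasma cell-like cells may thus hold more than free RNA, and cannot tell whether the lower shares are background. The *Flt3* shares of 0.758% and 0.952% in Lin-/CD11b+ neutro-biased progenitor-like cells also lay below those of plasma cell-like cells and are read as background.

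Over 25 groups of at least 50 cells (a library and a type), the likeness of receptors was described by Pearson's correlation of log2(CPM + 10), with groups of the same library sharing depth and free RNA. *Csf1r*, *Il6ra* and *Ccr2* went together, with r of 0.93 for *Csf1r* and *Il6ra*, 0.89 for *Il6ra* and *Ccr2* and 0.88 for *Csf1r* and *Ccr2*. *Kit* ran the other way, with r of -0.47 to *Csf1r* and -0.44 to *Ccr2*. The GM-CSF receptor chains were nearly unrelated over the groups (r = 0.11), whereas *Csf2rb* and *Cxcr4*, both high in basophil-like cells, had r of 0.68. Among 3770 other genes, gate markers left out, the nearest to *Ccr2* were *Ms4a4c* (r = 0.98), *Tgfbi* (0.97) and *S100a4* (0.96), and the nearest to *Flt3* were *Tsc22d1* (0.95), *Ccnd1* (0.90) and *Mef2c* (0.89). *Kit* was nearest to *Gm15657* (0.88), *Rab38* (0.85) and *Muc13* (0.85), *Csf1r* to *AI839979* (0.95), *Cfp* (0.94) and *Prkcd* (0.94), and *Csf2ra* to *App* (0.92), to *Spi1*, which encodes PU.1 (0.91), and to *Rab32* (0.90). *Csf2rb* was nearest to *Stx3* (0.89), *Cd53* (0.86) and *Lmo4* (0.86), and *Cxcr4* to *Fcer1g* (0.88), *Tyrobp* (0.86) and *Lbr* (0.80). *Il6ra* had *Csf1r* itself, *Cd302* (0.92) and *Stard3nl* (0.91) nearest to it, and *Csf3r* had weaker neighbours, *Pgp* (0.78), *Gyg* (0.78) and *Atg101* (0.74).

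Detection of 2 receptors in the same cell followed the same grouping over all cells of a library. A library mixes the types, so these values do not show a pairing beyond that of the types. In the Lin-/CD11b+ control library, 9.15% of cells (7.90 to 10.5) had UMIs of both *Csf1r* and *Ccr2* at equal depth, where the product of the single shares was 4.91%, and in the *Tet2* KO library the values were 12.1% and 6.91%. *Kit* and *Csf1r* were met in the same cell less often than the product, in 0.520% against 1.44% of control cells and in 0.782% against 2.39% of *Tet2* KO cells. Among GMPs, the gap was smaller, at 1.03% against 1.59% in control and 1.47% against 1.65% in *Tet2* KO, with the product inside the interval. *Kit* and *Flt3* stood near the product in control (1.35% against 1.26%) and above it in *Tet2* KO Lin-/CD11b+ cells (2.38%, 1.87 to 2.98, against 1.83%). Within monocyte-like cells the pairing of *Csf1r* and *Ccr2* was near the product, at 22.7% against 20.2% in control and 32.3% against 31.1% in *Tet2* KO, whereas *Flt3* and *Ccr2* were below it, at 11.3% (7.94 to 15.6) against 16.6% in control and 12.3% (9.75 to 15.3) against 16.8% in *Tet2* KO. Counting the receptors read in a cell, monocyte-like cells had a mean of 2.39 ± 1.30 (SD over 291 cells) in control and 2.73 ± 1.30 (567 cells) in *Tet2* KO. Mono-biased progenitor-like cells had 1.51 and 1.49 in GMPs and 1.74 and 2.16 in Lin-/CD11b+ cells, neutro-biased progenitor-like cells 0.76 and 0.80 in GMPs and 0.86 and 1.06 in Lin-/CD11b+ cells, and plasma cell-like cells 0.25 and 0.35.

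Primary granule transcripts (*Mpo*, *Elane*, *Prtn3* and *Ctsg*) are lost as monocytic progenitors become monocytes, so monocytic cells were placed in bins of these UMIs per 5000. In the Lin-/CD11b+ control library *Flt3* was at 7.57 CPM in the bin of 50 to 99 UMIs, at 28.6 CPM at 10 to 19 UMIs, and at 104 CPM (82.7 to 129, 102 cells) at 0 to 1 UMI. *Ccr2* in the same library had 106, 259 and 234 CPM in these bins, with its highest level, 358 CPM, at 2 to 4 UMIs. *Csf1r* changed less, from 56.5 CPM at 50 to 99 UMIs to 80.8 CPM at 10 to 19. The cells with the fewest granule transcripts were thus the richest in *Flt3*. Monocyte-like cells without a UMI of *F13a1* or *Fn1* (104 of 291 control and 165 of 567 *Tet2* KO cells) had 121 and 115 CPM of *Flt3*, beside 171 and 130 CPM of *Siglech* and 2140 and 1475 CPM of *Irf8*, genes known from dendritic cells, whereas those with such a UMI had 42.4 and 28.5 CPM of *Flt3* beside 24.9 and 10.1 CPM of *Siglech*. The share of cells without such a UMI was 35.7% in control and 29.1% in *Tet2* KO, and its part in the *Flt3* level was not tested.

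**Figure D2:**
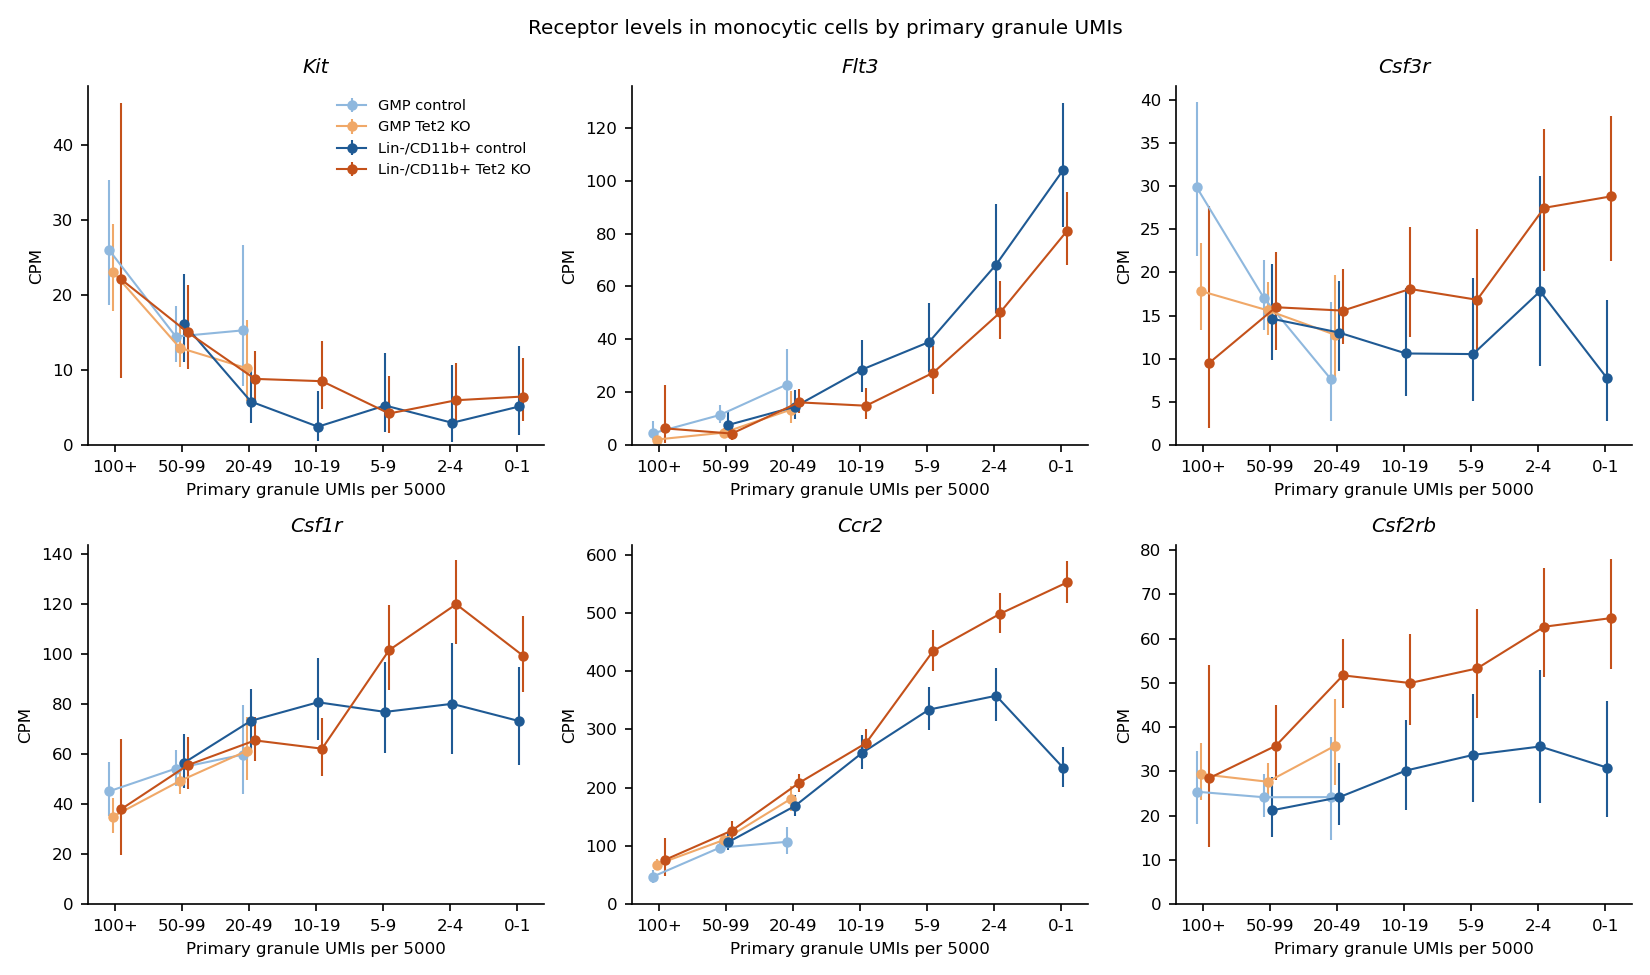
Levels of 6 receptors in CPM (vertical axes, linear from 0) in monocytic cells of the 4 libraries, binned by primary granule UMIs per 5000 from many (left) to few (right), with bars for the 95% counting interval and bins of at least 20 cells. *Csf2rb* in the Lin-/CD11b+ *Tet2* KO library (dark orange) lies above control (dark blue) in every bin both hold, and *Ccr2* parts from control most at 0 to 1 UMI, at 553 against 234 CPM.

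For the comparison of genotypes, the ratio of CPM between the *Tet2* KO and the control library of a sort was taken for each type that held 50 or more cells on both sides, which gave 12 comparisons and 108 ratios for the 9 receptors. A receptor is counted as different here when its ratio was past 1.5-fold with at least 20 UMIs over both libraries. Of 89 ratios with that many UMIs, 31 were past 1.5-fold, 26 of them higher and 5 lower in *Tet2* KO, and the counting interval left out a ratio of 1 for 22 of the 31. In GMPs, *Cxcr4* was higher and *Flt3* lower in mono-biased progenitor-like cells, 2 of 9 receptors, where 10.7% of all genes were past the same limit. *Csf1r* and *Il6ra* were higher in neutro-biased progenitor-like cells, 2 of 8 against 11.4% of all genes, and *Kit* in basophil-like cells, 1 of 4 against 20.6%.

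In the Lin-/CD11b+ sort, *Csf2rb*, *Csf3r* and *Ccr2* were higher in monocyte-like cells, 3 of 9 receptors, where 16.3% of all genes were past 1.5-fold. Check markers of monocyte-like cells differed too, with *Irf8* at 1350 CPM in control and 779 CPM in *Tet2* KO. *Clec4a1* was at 27.1 and 61.9 CPM, *Clec4a3* at 40.8 and 103 CPM, *Ctss* at 518 and 740 CPM and *Lgals3* at 1581 and 1733 CPM. The part of these differences in the receptor ratios of monocyte-like cells was not tested. *Csf2rb* alone was different in mono-biased progenitor-like cells, 1 of 9 against 12.8%. Neutro-biased progenitor-like cells had *Csf2rb*, *Il6ra*, *Ccr2* and *Cxcr4* higher, 4 of 7 against 16.9%, and there the median log2 ratio of the 7 was 0.97, with -0.018 over all genes. Of the granulocytic check markers of these cells, *S100a8* was at 891 CPM in control and 5447 CPM in *Tet2* KO, and *S100a9* at 141.5 and 1086 CPM. *Gfi1* was level, at 19.4 and 19.1 CPM. The part of the *S100a8* and *S100a9* differences in the receptor ratios was not tested. In early progenitor-like cells *Ccr2* was higher and *Flt3* and *Csf1r* were lower, 3 of 9 against 16.6%. *Csf1r* there rested on 16 against 13 UMIs, with an interval that spanned both signs (-1.74 to 0.58). *Ccr2* in early and neutro-biased progenitor-like cells rested on 40 against 8 and 13 against 7 UMIs, in shares of cells below those of plasma cell-like cells. Neutrophil-like cells had *Kit*, *Csf1r* and *Ccr2* higher, 3 of 9 against 34.8% of all genes, a type in which all genes together were shifted by a median of 0.34. Basophil-like cells had *Kit* higher and *Csf2rb* lower, 2 of 4 against 26.8%, and plasmacytoid dendritic-like cells had *Csf1r* higher, 1 of 5 against 20.9%. The intervals of *Kit* in neutrophil- and basophil-like cells and of *Csf1r* in plasmacytoid dendritic-like cells spanned both signs. In lymphocyte-like cells 6 of 9 were different against 26.3%, with *Flt3* lower and *Kit*, *Csf1r*, *Csf2ra*, *Csf2rb* and *Ccr2* higher. The intervals of *Kit*, *Flt3* and *Csf2rb* spanned both signs. Of these cells, 19 of 54 in control and 48 of 121 in *Tet2* KO held 5 or more UMIs of the monocytic gate markers. Without them *Csf1r* rested on 2 and 5 UMIs, *Csf2ra* on 4 and 14 and *Csf2rb* on 3 and 9. *Kit* stayed higher (5 and 24 UMIs), *Flt3* stayed lower (13 and 10 UMIs) and *Ccr2* changed sign, on 19 UMIs in each library. In plasma cell-like cells *Flt3*, *Csf1r* and *Ccr2* were higher, 3 of 7 against 25.9%. These cells should lack the 3 receptors, so the values are not read as expression by plasma cells, though they count in the totals above. The share of receptors was therefore near or below that of all genes in mono-biased progenitor-like cells of the Lin-/CD11b+ sort, in neutrophil-like cells and in the few receptors read in GMP basophil-like and plasmacytoid dendritic-like cells.

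**Figure D3:**
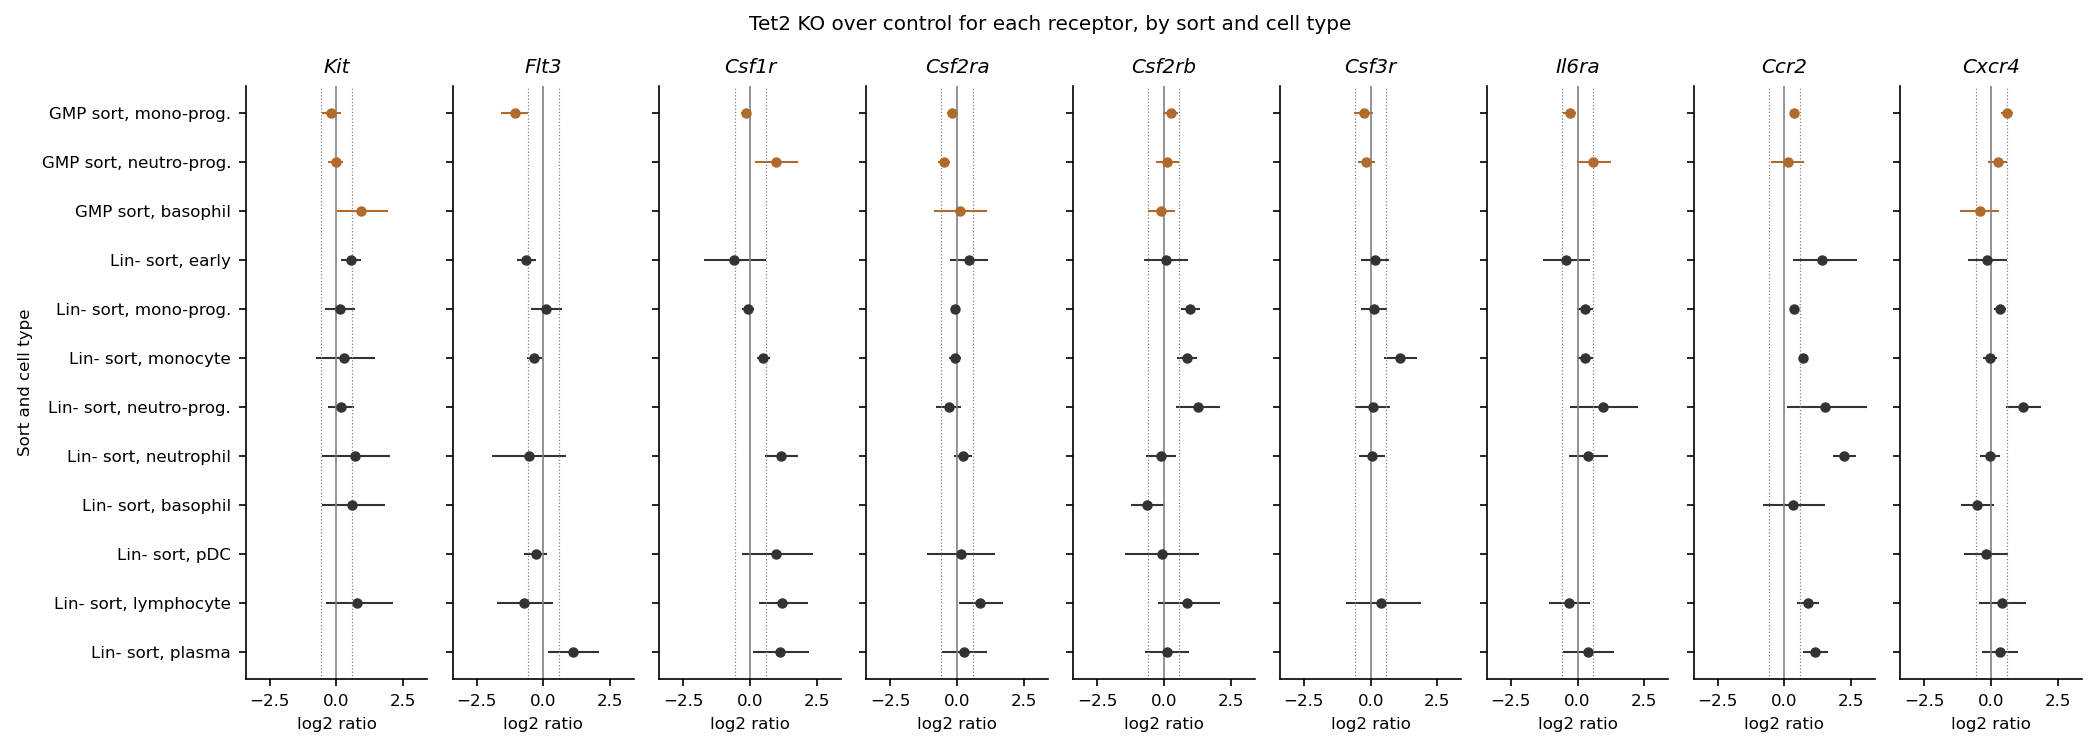
Log2 ratio of CPM, *Tet2* KO over control, for each receptor (panels) in each sort and cell type (rows), with bars for the 95% counting interval and dotted lines at 1.5-fold, for ratios with at least 20 UMIs over both libraries. *Flt3* lies left of 0 in GMP mono-biased progenitor-like cells (-1.08), and *Csf2rb* lies past the right dotted line in Lin-/CD11b+ monocyte-like (0.86), lymphocyte-like (0.87), mono-biased (0.99) and neutro-biased progenitor-like cells (1.27), while its GMP values lie between -0.10 and 0.26.

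In early progenitor-like cells *Flt3* was past 1.5-fold and *Kit* was not. *Kit* was 64.2 CPM in control and 93.5 CPM in *Tet2* KO (log2 ratio 0.54, 0.18 to 0.92, just inside 1.5-fold), and at equal depth the ratio was 0.26. *Flt3* was lower in the same cells, at 87.4 and 56.2 CPM (-0.64, -1.001 to -0.27), with 29.5% and 20.9% of cells positive, and the ratio came inside 1.5-fold when types were assigned by likelihood (-0.53) or cells were averaged (-0.54). The unnamed *Car2* *Itga2b* cells had the same order, with *Flt3* at 54.7 and 24.9 CPM. In mono-biased progenitor-like GMPs *Flt3* was 11.1 CPM in control (73 UMIs in 358 cells) and 5.26 CPM in *Tet2* KO (59 UMIs in 671 cells), a log2 ratio of -1.08 (-1.60 to -0.56). At equal depth 4.47% (2.58 to 7.16) and 3.13% (1.95 to 4.74) of these cells had a *Flt3* UMI, with overlapping intervals. Both shares were near those of plasma cell-like cells in the other sort. The Lin-/CD11b+ cells of that type had 10.5 and 11.4 CPM (0.11, -0.45 to 0.69), so the difference was seen in the GMP sort and not in the other, and the difference between sorts was not tested. Over all cells of a sort the log2 ratio of *Flt3* was -0.89 in GMPs and -0.12 in Lin-/CD11b+ cells. *Csf1r* in monocyte-like cells was higher in *Tet2* KO, at 107 against 76.6 CPM (0.48, 0.24 to 0.74), and was read in 39.3% against 30.6% of cells, while in mono-biased progenitor-like cells its log2 ratio was -0.16 in GMPs and -0.090 in the Lin-/CD11b+ sort.

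The GM-CSF receptor chains differed from each other in the comparison of genotypes. *Csf2rb* was higher in the *Tet2* KO library in monocyte-like cells, at 60.6 against 33.3 CPM (0.86, 0.50 to 1.24), in Lin-/CD11b+ mono-biased progenitor-like cells, at 44.7 against 22.5 CPM (0.99, 0.65 to 1.35), and in neutro-biased progenitor-like cells, at 27.6 against 11.5 CPM (1.27, 0.47 to 2.09, 36 and 23 UMIs). The last fell just inside 1.5-fold, at 0.58, when types were assigned by likelihood. In the GMP sort the same progenitor types had log2 ratios of 0.26 (-0.019 to 0.54) and 0.14 (-0.29 to 0.57). Along the granule bins, *Csf2rb* was higher in *Tet2* KO in each of the 6 Lin-/CD11b+ bins, by log2 ratios of 0.66 to 1.10, and in the 3 GMP bins the log2 ratios were 0.20 to 0.57. *Csf2ra* showed no such difference in the monocytic branch, with log2 ratios of -0.072 (-0.29 to 0.15) in monocyte-like and -0.060 (-0.24 to 0.12) in Lin-/CD11b+ mono-biased progenitor-like cells, and was lower in *Tet2* KO neutro-biased progenitor-like GMPs, at 45.6 against 64.5 CPM (-0.50, -0.72 to -0.28). Basophil-like cells, the type with most *Csf2rb*, had less of it in the Lin-/CD11b+ *Tet2* KO library, at 70.7 against 108 CPM from 48 UMIs in each (-0.61), and little difference in GMPs (-0.10, -0.60 to 0.41).

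*Csf3r* was higher in *Tet2* KO monocyte-like cells, at 24.8 against 11.7 CPM (1.09, 0.48 to 1.74), with 11.1% and 6.87% of cells positive, and had log2 ratios of 0.032 (-0.45 to 0.53) in neutrophil-like cells and 0.076 (-0.59 to 0.72) in Lin-/CD11b+ neutro-biased progenitor-like cells. In mono-biased progenitor-like cells it was -0.27 (-0.61 to 0.074) in GMPs and 0.11 (-0.38 to 0.60) in the Lin-/CD11b+ sort, so among these types the G-CSF receptor was past 1.5-fold in monocyte-like cells only. *Il6ra* in mono-biased progenitor-like cells was lower in *Tet2* KO GMPs, at 29.9 against 36.8 CPM (-0.30, -0.54 to -0.056), and higher in *Tet2* KO Lin-/CD11b+ cells, at 39.6 against 32.8 CPM (0.27, -0.037 to 0.59). Monocyte-like cells had an *Il6ra* log2 ratio of 0.28 (-0.015 to 0.57). In neutro-biased progenitor-like cells *Il6ra* (0.59 in GMPs and 0.97 in Lin-/CD11b+ cells) and *Csf1r* (0.96 in GMPs) were higher in *Tet2* KO, on levels of 10.7 CPM or less in every library, and the *Il6ra* intervals included 0.

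*Ccr2* was higher in the *Tet2* KO library in monocyte-like cells by a log2 ratio of 0.69 (0.57 to 0.82), the narrowest interval of any receptor there, resting on 2395 and 740 UMIs. The ratio was inside 1.5-fold, at 0.54, when types were assigned by likelihood. It was 0.62 (0.49 to 0.75) in cells with an *F13a1* or *Fn1* UMI and 0.91 (0.60 to 1.23) in those without. Mono-biased progenitor-like cells differed less, by 0.34 (0.20 to 0.49) in GMPs and 0.35 (0.20 to 0.50) in the Lin-/CD11b+ sort, values that nearly coincide in the 2 sorts of the same mice. By granule bin, the Lin-/CD11b+ log2 ratio was 0.25 at 50 to 99 UMIs, 0.30 at 20 to 49 and 0.091 at 10 to 19. It was 0.38 at 5 to 9, 0.48 at 2 to 4 and 1.24 (1.01 to 1.48) at 0 to 1 UMI. In GMPs the log2 ratio was 0.53 at 100 or more UMIs, 0.18 at 50 to 99 and 0.76 (0.40 to 1.13) at 20 to 49. *Cxcr4*, the retention receptor, was higher in *Tet2* KO mono-biased progenitor-like cells of both sorts, by 0.59 (0.38 to 0.81) in GMPs and 0.32 (0.11 to 0.54) in Lin-/CD11b+ cells, the first of which stood at the 1.5-fold limit and came inside it, at 0.43, with types by likelihood. In neutro-biased progenitor-like cells it was 0.24 (-0.12 to 0.61) in GMPs and 1.20 (0.57 to 1.85) in Lin-/CD11b+ cells, at 41.3 against 17.9 CPM. Monocyte-like and neutrophil-like cells had *Cxcr4* log2 ratios of -0.037 (-0.30 to 0.23) and -0.058 (-0.43 to 0.31).

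Some *Ccr2* and *Csf1r* differences lay in types where monocytic markers were also read. *Ccr2* in neutrophil-like cells was 36.1 CPM in control and 170.0 CPM in *Tet2* KO (2.23, 1.81 to 2.68), the highest ratio of any receptor with at least 20 UMIs. The 5 monocytic gate markers summed to 205 CPM in these control cells and 643 CPM in the *Tet2* KO ones, all 5 were detected in both, and 8 of 152 control cells and 45 of 180 *Tet2* KO cells held 5 or more of their UMIs. Without those cells *Ccr2* was 18.9 and 44.8 CPM (1.25), and *Csf1r*, 20.5 and 45.5 CPM in all neutrophil-like cells (1.15), was 16.0 and 15.2 CPM (-0.075). In lymphocyte-like cells, 19 of 54 control and 48 of 121 *Tet2* KO cells held as many monocytic UMIs (marker sums 753 and 1114 CPM), and *Ccr2* was 124 and 229 CPM with them (0.88) and 56.9 and 30.7 CPM without them (-0.89). The last 2 levels rested on 19 UMIs each, and their intervals overlapped (34.2 to 88.8 and 18.5 to 47.9 CPM). Plasma cell-like cells had *Ccr2* at 21.5 and 47.9 CPM (1.15) with all cells and at 12.7 and 24.6 CPM (0.95) without 7 control and 14 *Tet2* KO cells, with marker sums of 135 and 235 CPM over all of them. Early and neutro-biased progenitor-like cells, whose gates cap the monocytic UMIs, held 0 such cells. The ratio of *Ccr2* in neutrophil-like cells therefore stayed past 1.5-fold without these cells and that of *Csf1r* did not. That of *Ccr2* in lymphocyte-like cells changed sign, on few UMIs and with overlapping intervals of the levels. Neutrophil- and plasma cell-like cells also had all genes shifted, by a median of 0.34 and 0.18 with CPM, and a scaling by TMM lowered every log2 ratio in them by 0.31 and 0.19.

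**Figure D4:**
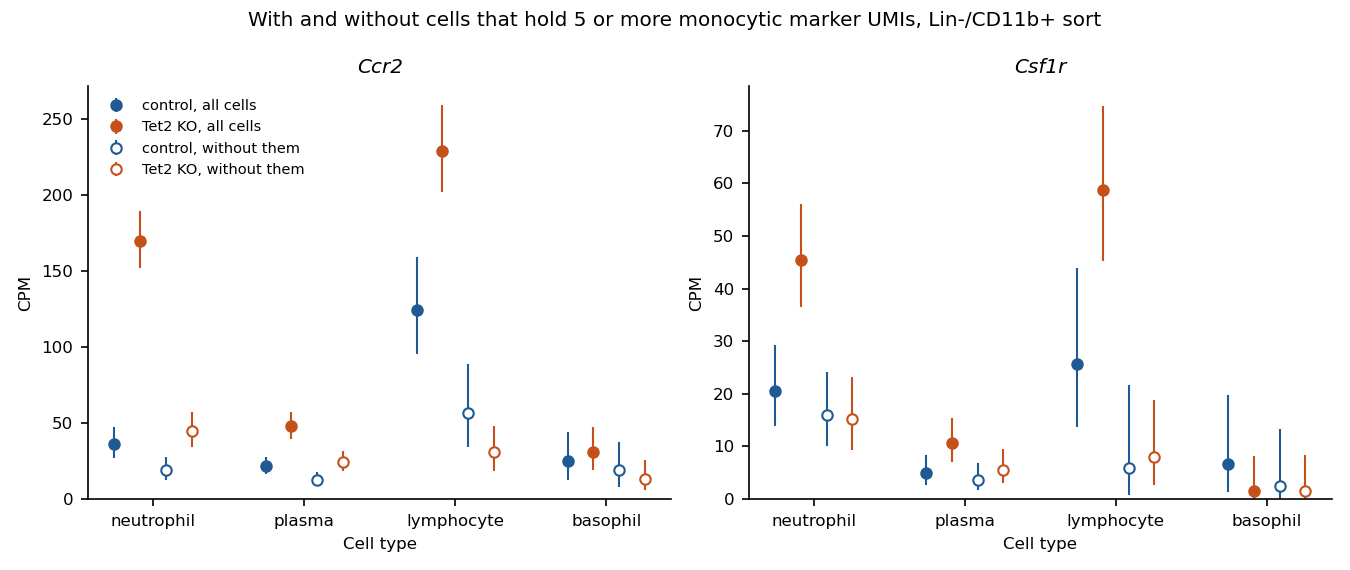
*Ccr2* (left) and *Csf1r* (right) in CPM (linear axes from 0) in 4 Lin-/CD11b+ cell types of the control (blue) and *Tet2* KO (orange) libraries, with all cells (filled) and without cells that hold 5 or more UMIs of the monocytic gate markers (open), and bars for the 95% counting interval. In neutrophil-like cells *Ccr2* goes from 36.1 and 170.0 CPM to 18.9 and 44.8 CPM, and *Csf1r* from 20.5 and 45.5 CPM to 16.0 and 15.2 CPM.

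Other genes of the same pathways were taken from 4 lists, of which the receptor list held 52 genes. In monocyte-like cells 11 other growth factor and cytokine receptors were higher and 1 lower in *Tet2* KO of 30 with at least 20 UMIs, where 16.3% of all genes were past 1.5-fold (median log2 ratio 0.34, with 0.00 over all genes), among them the shared chain *Il2rg* at 43.5 against 12.1 CPM (1.85, 1.28 to 2.46) and the IL-13 receptor chain *Il13ra1* (1.18). The lower member was *Il3ra*, the IL-3 receptor chain that pairs with *Csf2rb*, at 55.4 against 83.7 CPM (-0.60), and in early progenitor-like cells it was at 22.1 against 47.8 CPM (-1.11, -1.66 to -0.57). Lin-/CD11b+ mono-biased progenitor-like cells had 8 higher and 1 lower of 27 (median 0.19) against 12.8% of all genes, and GMPs of that type 4 and 4 of 27 (median 0.00) against 10.7%. The IL-4 receptor chain *Il4ra* was higher in both, by 1.16 and 0.59. Of 17 other chemokine and chemoattractant receptors, 8 had at least 20 UMIs in monocyte-like cells, 4 of them higher and 1 lower, against the same 16.3% of all genes. *Fpr2*, a formyl peptide receptor, was at 29.6 against 4.17 CPM there (2.83, 1.91 to 3.92), and *Ccr1* at 30.4 against 18.3 CPM (0.73). In the control library *Fpr2* was highest in neutrophil-like cells, at 162 CPM. The part of neutrophil transcripts in the *Fpr2* and *Csf3r* ratios of monocyte-like cells was not tested. Neutrophil-like cells had *C5ar1*, the complement C5a receptor, and *Cxcr2*, the receptor for neutrophil chemokines, lower in *Tet2* KO, with log2 ratios of -1.62 and -0.76. Neutrophil markers were lower in the same cells, *Cd177* at 308.6 against 541.5 CPM, *Mmp9* at 144.7 against 259.1 CPM and *Mmp25* at 2.58 against 11.6 CPM, and 25.0% of *Tet2* KO against 5.26% of control cells held 5 or more monocytic UMIs. The part of either in these ratios was not tested.

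Below the receptors, *Pim1*, a kinase and a known STAT target, was lower in *Tet2* KO neutro-biased progenitor-like cells of both sorts, at 30.6 against 62.8 CPM in GMPs (-1.04, -1.29 to -0.79) and 26.0 against 51.8 CPM in Lin-/CD11b+ cells (-0.99), and in basophil-like cells of both (-0.78 and -1.46). Of the 32 signalling genes, 4 were higher and 1 was lower of 30 in monocyte-like cells against 16.3% of all genes, and 2 and 1 of 29 in mono-biased progenitor-like GMPs against 10.7%, shares near those of all genes. In Lin-/CD11b+ cells of the latter type they were 5 and 1 of 29 against 12.8%. Ligands were mostly unread. Of 12 listed, 2 reached 20 UMIs in monocyte-like cells, of which *Ccl2*, the CCR2 ligand, was at 20.8 against 31.2 CPM (-0.59, -1.03 to -0.13).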

How the data were processed

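Single-cell RNA-seq was done by the authors with the 10x Chromium system. According to the submitters' processing notes, reads were processed against mm10 with Cell Ranger 3.1.0 and Seurat, and the deposited values are unnormalized UMI counts, with each cell assigned to its library in a second table. The annotation release and the use of strand are not stated in those notes. Gene positions are from a GENCODE vM21 annotation of GRCm38, the same assembly as mm10.

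Cells were used as deposited, including 413 with 5% or more mitochondrial counts, and the lowest depth was 5003 UMIs per cell. No doublet caller was run, and the 5% of cells with most UMIs were left out as an alternative. Each cell was thinned once to 5000 UMIs (seed 1), and was typed by minimum and maximum UMIs of marker genes. Types are ranges, with 952 cells within 1 UMI of the monocytic minimum, 1349 of the granulocytic and 2388 of the early progenitor minimum. A likelihood assignment gave the same type to 87.38% of gated cells. UMIs were summed per library and type, as CPM with exact Poisson intervals, shares had exact binomial intervals, and ratios exact conditional binomial intervals. Ratios compare libraries, not genotypes. The analysis was checked on simulated counts. All 9 receptors are named, with the 3 most alike genes for each and, of the other lists, the 3 highest and 3 lowest log2 ratios per list and comparison among genes with at least 100 UMIs and past 1.5-fold, the same way in the other sort where it held the type. Some genes that met this rule are not reported here. Csf2rb2, Siglech, Irf8, *Tet2* and the type markers are named outside that rule, after their values were seen. *Nkg7* was dropped from the lymphocyte markers for the same reason. The receptors, lists and gates were chosen with earlier results of these data known. Tools were Python 3.11.15 with numpy 2.4.6, scipy 1.17.1, pandas 2.3.3 and matplotlib 3.10.9, and edgeR 4.0.16 in R 4.3.3 for TMM factors.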

Additional observations from a re-analysis of the deposited data

Results flagged for a closer look

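*Flt3* in mono-biased progenitor-like cells was lower in the *Tet2* KO library of the GMP sort (log2 ratio -1.08) and slightly higher in that of the Lin-/CD11b+ sort (0.11). It drew attention because the signs were opposite and the counting intervals of the ratios did not overlap. In GMPs of this type the shares of cells with a *Flt3* UMI at equal depth had overlapping intervals in control and *Tet2* KO. *Il6ra* in the same type had log2 ratios of -0.30 in GMPs and 0.27 in Lin-/CD11b+ cells, again of opposite sign with intervals that did not overlap. The difference between the sorts was not tested for either receptor, as each sort held 1 library per genotype.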

How the results depend on the processing

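No paired analysis was possible because there is 1 library per group, and no replicate could be left out for the same reason. Of the 31 ratios past 1.5-fold, 29 stayed past it the same way with TMM factors, 28 without cells at 5% or more mitochondrial counts, 28 without the 5% of cells with most UMIs, 27 with the mean over cells, 24 at 5000 UMIs per cell and 15 with types by likelihood, and 27 of 30 did with stricter gates. With types by likelihood 17 ratios were past 1.5-fold, with no UMI filter 47 and with at least 100 UMIs 11, and for the listed genes the counts were 184 as reported, 517 and 50. In the other sort, *Flt3* of mono-biased progenitor-like GMPs changed sign (0.11), *Cxcr4* was 0.32, and *Csf2rb* of the Lin-/CD11b+ cells of that type was 0.26. *Ccr2* changed sign in early progenitor-like cells with stricter gates (-0.11), as did *Csf2rb* in lymphocyte-like cells at 5000 UMIs (-0.064). The leaving out of cells rich in monocytic markers, the split by *F13a1* or *Fn1* and the granule bins were chosen after seeing the data. Without cells rich in monocytic markers, *Ccr2* was 1.25 in neutrophil-like and -0.89 in lymphocyte-like cells (the latter on 19 UMIs in each library), and *Csf1r* -0.075 in neutrophil-like cells. In monocyte-like cells without *F13a1* or *Fn1*, *Csf2rb* was 1.32 and *Ccr2* 0.91, and *Ccr2* was 0.54 with types by likelihood. The cell type with the highest level stayed the same for 4 of the 9 receptors with shares in cells as deposited. At 5000 UMIs the highest share was in early progenitor-like cells for *Csf3r*, conventional dendritic-like for *Ccr2* and monocyte-like for *Csf2ra*, and types by likelihood also changed *Ccr2* and *Csf2ra* in that way. The cause of these changes was not tested.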
